A study of Arabidopsis thaliana with 18 samples.

Results

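The 3 arrays of plants treated with SA that come first by title number (46 to 48) were set against the 6 SA arrays with later titles (49 to 54). These are 9 of the 18 arrays of the series, chosen by treatment and title number alone. All came from Arabidopsis thaliana accession Est, and all plants, those of the other 9 arrays included, received the wetting agent silwet at 0.02%. SA stands for salicylic acid in plant work, and the labels give its dose as 0.30 mM. Within the treatment the titles pass 3 times through replicate numbers 1 to 3, so the first run holds titles 46 to 48 and the later arrays hold a second run (49 to 51) and the third run (52 to 54). The other 9 arrays received silwet without SA and are used below only for values of the same split (titles 37 to 39 against 40 to 45). The sources used here do not say what separates one run from the next, which silwet run belongs to which SA run, which tissue was taken, or whether arrays came from separate plants. P-values therefore measure the spread between these arrays, which may be technical in part.

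Salicylic acid is a hormone of defence against pathogens that feed on living tissue. Its receptors, the NPR proteins, act with TGA transcription factors to turn on defence genes, many of whose products are secreted, and plants limit the free hormone by attaching sugars or a methyl group to it. Defence responses are also known to draw on chaperones of the cytosol and the endoplasmic reticulum, while growth requires enzymes and peptides that loosen and extend the cell wall.

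Signals of each array had been scaled by MAS5, Affymetrix software that gives 1 linear signal per probe set. Median signals of the SA arrays ran from 29.9 to 35.2, and no arrays held identical values. Levels were taken as log2(signal + 16), differences are first run minus later arrays on that scale, and ± after a difference is its standard error (3 against 6 arrays). A gene is said to have risen or fallen where limma's adjusted p was under 0.05 with the replicate number as a block. Scaling hides any shift in the amount of RNA per plant, and in bulk tissue fewer cells of a type cannot be told apart from less transcript per cell.

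The first SA run was separated from the later arrays by a large part of the transcriptome. Of 17059 probe sets tested, 2395 rose (14.0%) and 2624 fell (15.4%), together 29.4%. Counts in the gene lists below are to be read beside these shares. Lists and members were chosen with earlier results of these data known, so such counts are descriptions and not tests. The median difference over all probe sets was -0.04. Changes of more than 2-fold were commoner among rises (931) than among falls (598), and for more than 4-fold the counts were 130 and 33. The signals of all 3 first-run arrays lay above those of all 6 later ones at 13.9% of the probe sets tested and below them at 14.5%. Against the second run alone 21.9% of probe sets passed and against the third alone 23.6%. These comparisons share the first-run arrays. The later runs were not separated from each other: limma called 0, and 739 had an unadjusted p under 0.05, fewer than the 853 that 0.05 of all tests would give.

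The count of calls depended on arrays of the first run. It was 2660 without title 47 and 2733 without title 48, against 5019 with all 9. An exact Wilcoxon test of 3 against 6 arrays, without a block, put 4844 probe sets at its smallest possible p of 0.0238 and called 0, because the adjusted value of that p is 0.0838. The median half-width of the 95% interval of a difference was 0.355.

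One sign of RNA quality was apart between the runs. The log2 ratio of the 3' to the 5' control probe sets of ubiquitin was 1.27 to 1.48 in the first run and 1.55 to 2.30 on the later arrays (exact permutation p = 0.0357, two-sided, 0.321 adjusted over 9 array measures, where 0.0119 is the smallest p that 84 ways of choosing 3 arrays allow). The ranges did not overlap. The GAPDH ratios differed by -0.37 (exact permutation p = 0.131) and the actin ratios by -0.27 (exact permutation p = 0.559). With the mean of the 3 ratios as a covariate, 1622 probe sets rose and 1710 fell. All of the 30 named genes with the largest changes kept their calls, which their choice by size favoured. Of all 165 called named genes, 33 lost the call.

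The largest rises among probe sets with 1 named gene were led by UGT76B1, and the largest falls by AT1G29660, a member of the GDSL lipase family. The 15 rises ranged from 2.59 (AT3G09010) to 4.40 and the 15 falls from -2.13 (AT3G20820) to -3.12. All 30 kept their calls when any 1 SA array was left out, and 27 passed a test against a 2-fold limit. These 30 were chosen among called probe sets where, within each replicate number, the first-run array lay on the same side of both later arrays. In every one of the 30 the 3 first-run signals lay on one side of all 6 later signals, which that choice largely fixed in advance. The same choice favoured the kept calls and the result against the 2-fold limit. Of all 165 called named genes, 51 lost the call when some SA array was left out. Several have only a locus number in the gene tables: AT4G22530, AT3G16530, AT2G39210, AT1G08050 and AT2G20720 rose by 3.45, 3.28, 3.12, 3.03 and 2.96. AT4G01870, AT5G51830 and AT1G49000 rose by 2.81, 2.75 and 2.60. The size for AT1G49000 depended on the offset (4.24 with an offset of 1 and 1.40 with 64). CCR2, a cinnamoyl-CoA reductase of the phenylpropanoid pathway, rose by 2.66. AT1G12845 fell by 2.47, AT5G62360 by 2.29 and AT1G60590 by 2.16. DRT100, named for tolerance of DNA damage in a bacterial screen, fell by 2.24, and AT3G21670, the transporter family member NPF6.4, fell by 2.35.

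**Figure D1:**
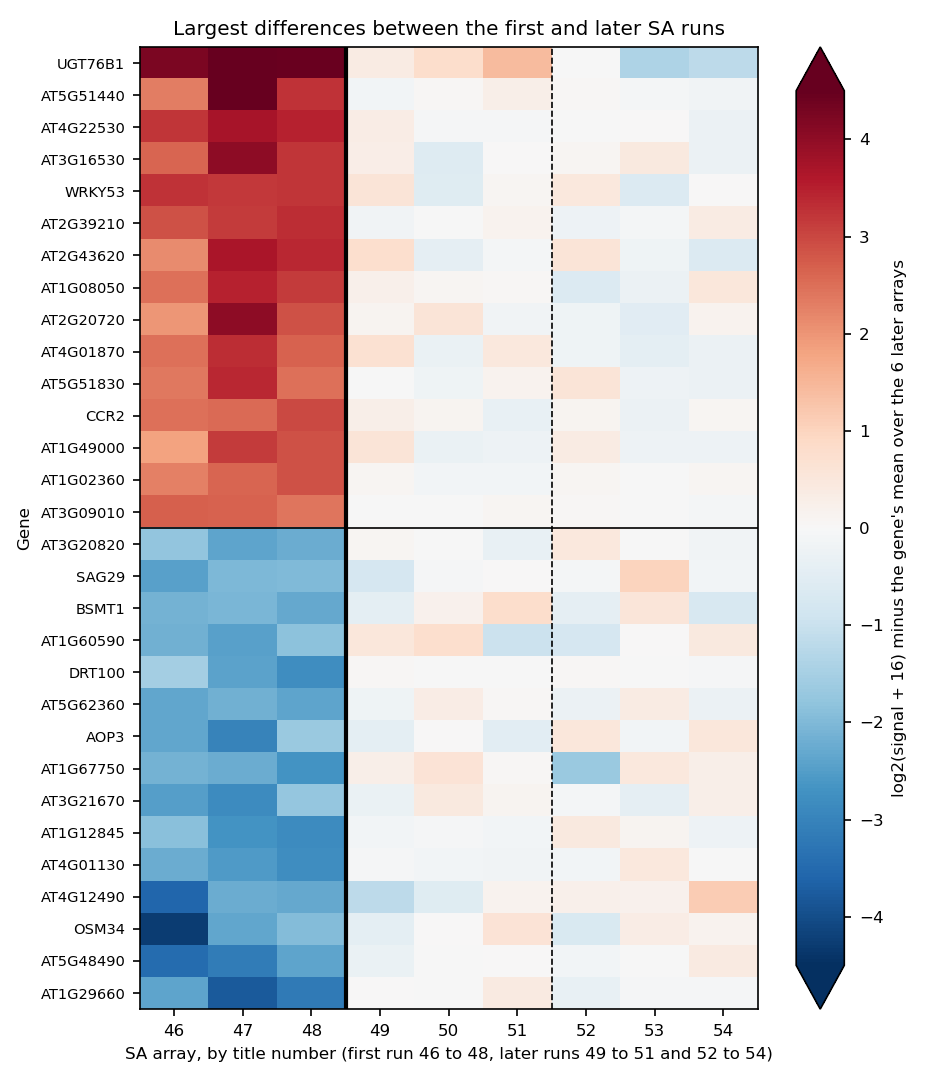
Heat map of the 15 largest rises (upper rows) and 15 largest falls (lower rows) among named genes on the 9 SA arrays, by title number. Colour is the log2(signal + 16) level minus the gene's mean over the 6 later arrays. Columns 46 to 48 stand apart in every row, as the choice of genes largely required. Columns 49 to 54 lie closer to 0, with AT1G67750 on title 52 the farthest off among the falls. Values past the ends of the colour bar take its end colours.

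Genes that act on salicylic acid itself changed in opposite directions. UGT76B1 (AT3G11340), which attaches glucose to salicylic acid and to isoleucic acid, had signals of 1440.0, 1776 and 1653 on the first-run arrays, against 13.6 to 192 on the later arrays, with a median of 71.4. It was the gene with the largest rise, 4.40 ± 0.54 (adjusted p = 0.000212). Within the later arrays, the 3 signals of the second run (83, 118 and 192) all lay above those of the third (59.7, 13.6 and 18.5), a gap that did not pass. BSMT1 (AT3G11480), which methylates salicylic and benzoic acid, had signals of 6.34, 7.37 and 3.48 on the first-run arrays, against 42.9 to 152 on the later arrays, with a median of 75. The 3 first-run signals were below 10 and all lay below the later ones, a difference of -2.15 ± 0.28 (adjusted p = 0.000305). They were under the offset of 16, so the size is set in part by it (-3.62 with an offset of 1 and -1.07 with 64). BSMT1 also fell in the same split of the silwet arrays, and its difference between treatments in first minus later did not pass.

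Regulators of the salicylic acid response were higher in the first run. GRX480 (AT1G28480), a glutaredoxin that binds TGA factors, had signals of 912, 780.2 and 671 on the first-run arrays, against 106 to 196 on the later arrays, with a median of 126. It rose by 2.33 ± 0.20 (adjusted p = 3.21e-05) with no overlap between the groups. SAG101 (AT5G14930), a lipase-like partner of the immune regulator EDS1, rose by 0.72 ± 0.16 (adjusted p = 0.00616), a call lost without title 48 (largest adjusted p with 1 array left out 0.0723). With UGT76B1 and BSMT1 these are the 4 tested members of a list of 30 genes of salicylic acid synthesis, signalling and response, and 3 of them rose and 1 fell. Most of that list, PR1 among them, has no named probe set in the gene tables and is not analysed here.

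WRKY transcription factors bind the W-box of defence and senescence genes. WRKY53 (AT4G23810), which promotes senescence and acts in defence, had signals of 858, 825 and 850.4 on the first-run arrays, against 44.5 to 122 on the later arrays, with a median of 79.7. The first-run signals lay within a few percent of each other and far above the rest, a rise of 3.22 ± 0.19 (adjusted p = 5.28e-06). WRKY6 and WRKY22 rose by 1.63 ± 0.21 (adjusted p = 0.000269) and 0.89 ± 0.18 (adjusted p = 0.0039). Of 7 WRKY genes tested, 3 rose, 0 fell and 4 did not pass, with a median of 0.37. The share that rose was 42.9%, against 14.0% of all probe sets. The same split of silwet arrays gave a median of 0.45.

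**Figure D2:**
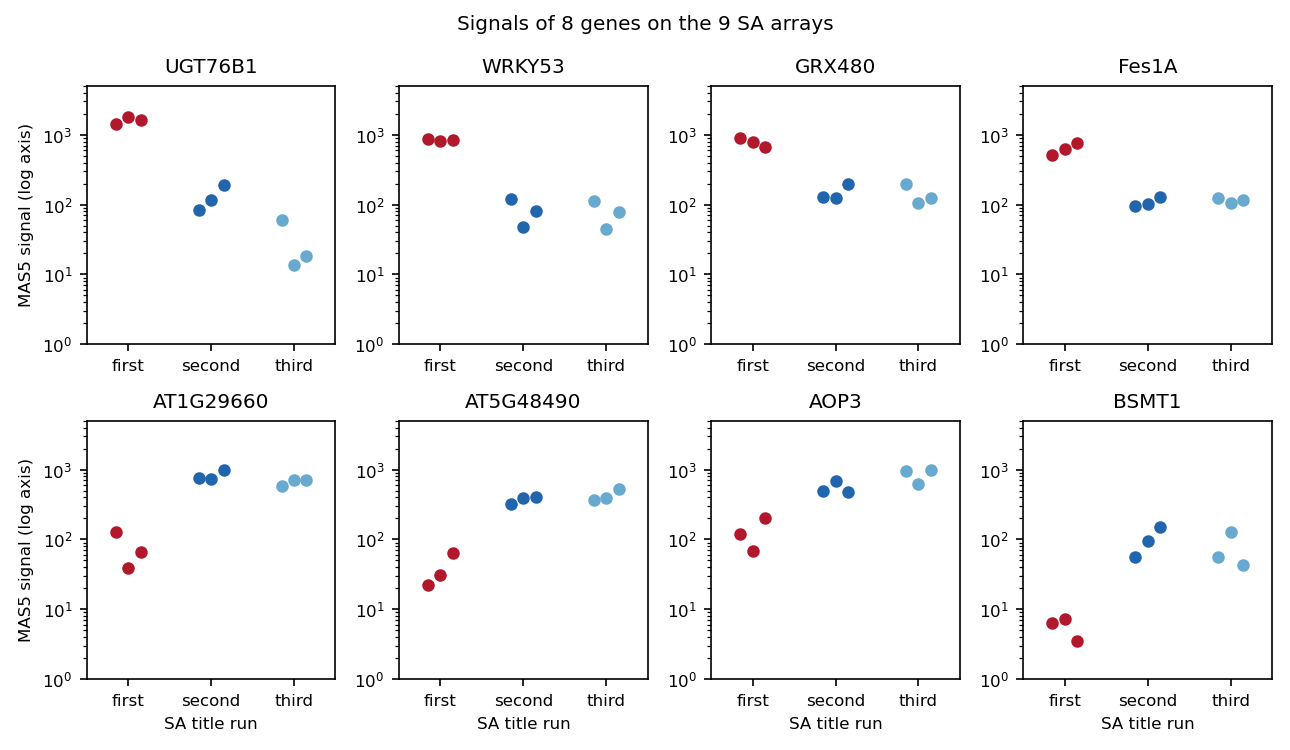
MAS5 signals (log axis) of 8 genes on each SA array, with 1 point per array and the runs from left to right in title order. UGT76B1, WRKY53, GRX480 and Fes1A lie higher in the first run than on any later array, and AT1G29660, AT5G48490, AOP3 and BSMT1 lie lower.

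Differences from each later run were close for most of these genes. Against the second run and against the third, values that share the first-run arrays, WRKY53 had 3.18 and 3.25, GRX480 2.29 and 2.37, and BSMT1 -2.34 and -1.97. UGT76B1 had 3.54 and 5.26. Over all probe sets 1574 rose and 1456 fell against both later runs taken one at a time.

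Other sugar-transferring enzymes and hormone-conjugating enzymes moved as well. UDP-glycosyltransferases attach sugars to hormones, flavonoids and foreign compounds. Of 36 tested, 11 rose and 4 fell (30.6% and 11.1%, against 14.0% and 15.4% over all probe sets). The median was 0.17, close to the silwet median of 0.16. Without title 47 the counts were 7 and 2, and without title 46 the median was 0.06. UGT73D1 (AT3G53150) rose by 2.20 ± 0.36 (adjusted p = 0.00118). UGT73B4 (AT2G15490), which is known to respond to salicylic acid and can glucosylate foreign compounds, had signals of 20.9, 62.7 and 34.2 on the first-run arrays, against 0.315 to 1.48 on the later arrays, with a median of 0.902. The later signals were near 0, so it was tested only because of its first-run signals. Its rise of 1.64 ± 0.17 (adjusted p = 8.31e-05) has a size set in part by the offset (0.65 with 64). With an offset of 1 its mean level did not pass the filter on level. UGT73B5, its neighbour on the chromosome, rose by 1.57 ± 0.19 (adjusted p = 0.000193).

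IAGLU (AT4G15550), which glucosylates the auxin indole-3-acetic acid, had signals of 252, 377 and 256 on the first-run arrays, against 42 to 68.4 on the later arrays, with a median of 63.5. The groups did not overlap, and the rise was 2.04 ± 0.19 (adjusted p = 4.22e-05). GH3.3, which joins auxin to amino acids, rose by 1.11 ± 0.20 (adjusted p = 0.00192). They were the 2 rises among 8 auxin genes tested (25%, against 14.0% of all probe sets), of which 0 fell. The list's median was -0.05, with 6 of the 8 below 0. F6'H1 (AT3G13610), the hydroxylase that commits feruloyl-CoA to the coumarin scopoletin, had signals of 289, 687 and 468 on the first-run arrays, against 28 to 155 on the later arrays, with a median of 58.5. All first-run signals exceeded the later ones, with title 47 the highest, and the rise was 2.56 ± 0.37 (adjusted p = 0.000563).

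Chaperones of the cytosol and organelles were among the groups with the highest medians. Of 13 heat shock proteins and partners tested, 7 rose, 1 fell and 5 did not pass, and the median was 0.82. Rises were 53.8% and falls 7.69%, against 14.0% and 15.4% over all probe sets. AT5G51440, a small heat shock protein, had signals of 147, 942 and 296 on the first-run arrays, against 13.8 to 23.3 on the later arrays, with a median of 16.8. Title 47 was more than 3 times as high as either other first-run array, yet all 3 stood far above the later arrays, a rise of 3.46 ± 0.35 (adjusted p = 7.39e-05). Its silwet difference was as large, 3.50. Fes1A (AT3G09350), a partner of Hsp70 in heat tolerance, rose by 2.35 ± 0.15 (adjusted p = 9.85e-06), and Hsp70-2 rose by 2.11 ± 0.18 (adjusted p = 3.10e-05). The Hsp70 to Hsp90 adaptors Hop2 and Hop3 rose by 0.92 and 1.27. Small heat shock genes varied: AT2G29500 rose by 0.82, AT1G54050 fell by 0.50 (a call lost without title 46), and ATHSP22.0 and AT1G53540 had differences of -0.14 and -0.13 that did not pass.

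Many genes of the endoplasmic reticulum and of entry into the secretory pathway rose and none fell. Of 30 tested, 14 rose (46.7%), 0 fell and 16 did not pass, against 14.0% and 15.4% over all probe sets, with a median of 0.40. This list was chosen with earlier results of these data known, so its share of rises is a description only. The number that rose was 10 to 15 when 1 SA array was left out. ATERDJ3B (AT3G62600), a cochaperone of the lumenal Hsp70 BiP, had signals of 1497, 1372 and 1608 on the first-run arrays, against 339 to 622 on the later arrays, with a median of 495. The groups were well apart, and the rise was 1.60 ± 0.16 (adjusted p = 6.71e-05). CRT1b, a calreticulin that folds glycoproteins, rose by 1.05 ± 0.12 (adjusted p = 0.000168). DER1, a derlin that helps to remove misfolded proteins, rose by 1.13, and its relative DER2.1 rose by 0.78, while DER2.2 had a difference of -0.10 that did not pass. AT3G60540 and AT1G29310, both listed as parts of the Sec61 channel through which new proteins enter the endoplasmic reticulum, rose by 1.303 ± 0.22 (adjusted p = 0.00117) and 1.13 ± 0.14 (adjusted p = 0.000261).

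Transcription factors of the unfolded protein response also rose. BZIP60 (AT1G42990), whose messenger is spliced when misfolded proteins build up, had signals of 750.1, 1441 and 1251 on the first-run arrays, against 266 to 504 on the later arrays, with a median of 390.4. First-run signals lay above all later ones, a rise of 1.47 ± 0.23 (adjusted p = 0.000836). BZIP28 and BZIP17, which are released from membranes by proteolysis, rose by 1.15 ± 0.17 (adjusted p = 0.000699) and 0.92 ± 0.21 (adjusted p = 0.00718), and the call of BZIP17 was lost without title 48 (adjusted p = 0.0626) and with the covariate (adjusted p = 0.0946). Of 11 genes with a BZIP symbol tested, 3 rose and 1 fell. The one that fell, BZIP61, changed by -1.89 ± 0.24 (adjusted p = 0.000234). Its size is set in part by the offset (-4.59 with an offset of 1 and -0.79 with 64). In the same split of the silwet arrays 2 of the 11 rose and 1 fell. The difference between treatments in first minus later was called above 0 for 0 of the 11, BZIP60, BZIP28 and BZIP17 included, and below 0 for 1.

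In the silwet arrays the secretory list behaved differently. Its silwet median was -0.04, with 1 member called. The difference between treatments in first minus later was itself called above 0 for 11 of the 30 members, against 8.38% called in either direction over all probe sets. For ATERDJ3B it was 1.66 (adjusted p = 6.90e-05), with silwet signals of 548 to 929 in the first run and 687 to 911 later. For the heat shock list 2 of 13 were called above 0, and its silwet median was 0.27.

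**Figure D3:**
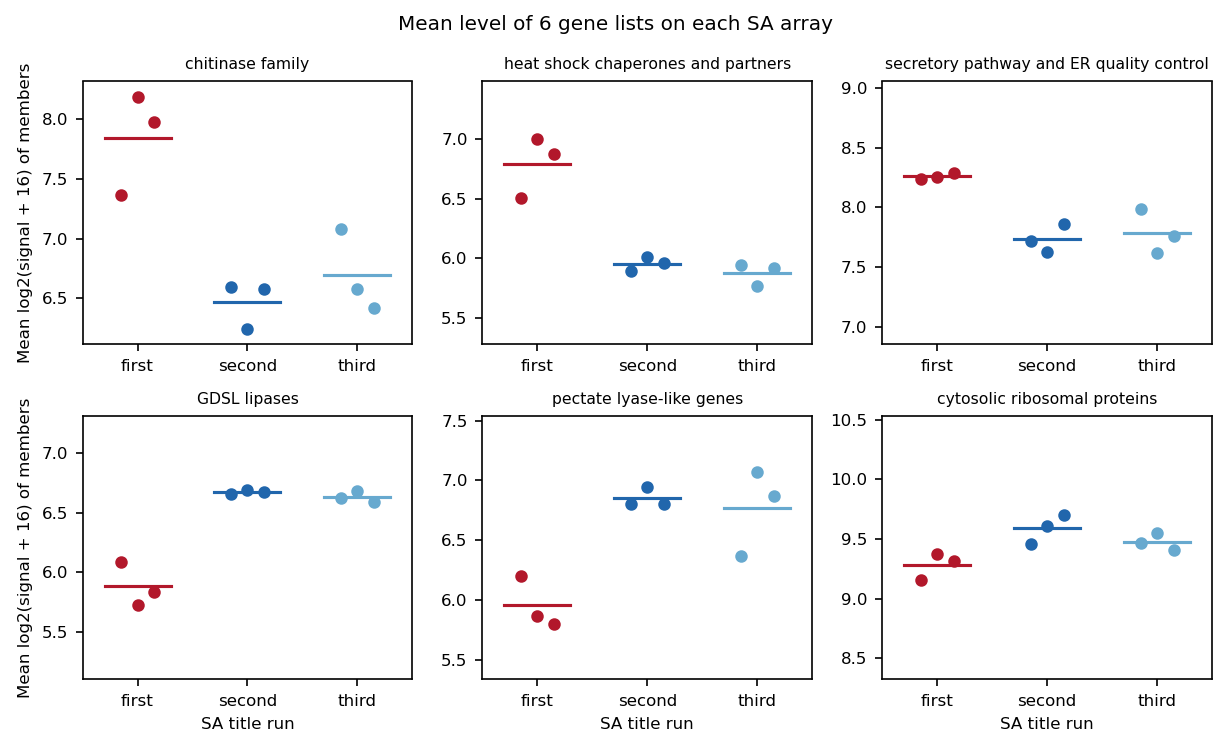
Mean log2(signal + 16) of the tested members of 6 gene lists on each SA array, with 1 point per array and a line at the mean of each run. The first run lies above both later runs in the chitinase, heat shock and secretory panels and below them in the GDSL lipase, pectate lyase and ribosomal panels.

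Secreted and cell-surface defence genes contributed further rises. Chitinases cleave the chitin of fungal walls. Of 8 chitinase family genes tested, 4 rose (50%, against 14.0% of all probe sets) and 0 fell. Their median was 1.03 (silwet 0.51), and 0.63 without title 47. AT2G43620 had signals of 309.96, 932 and 761 on the first-run arrays, against 31.9 to 108 on the later arrays, with a median of 50.8. Title 46 was the lowest of the first run and still above every later array, and the rise was 3.07 ± 0.38 (adjusted p = 0.000212). AT1G02360 and AT4G01700 rose by 2.59 ± 0.16 (adjusted p = 6.54e-06) and 2.15 ± 0.24 (adjusted p = 0.000128). CHI had a difference of 0.22 that did not pass.

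Berberine bridge enzyme-like oxidases, some of which inactivate cell wall fragments that act as elicitors, included 5 rises and 1 fall among 12 tested. These shares were 41.7% and 8.33%, against 14.0% and 15.4% over all probe sets. The median was 0.31 and that of the silwet split was higher, 0.41. With silwet 4 of the 12 rose, and the treatment difference was called above 0 for 1. AT1G26420 rose by 2.53 ± 0.28 (adjusted p = 0.000103) and AT1G26380 by 2.15 ± 0.24 (adjusted p = 0.000112). AT4G20830 had signals of 659, 798 and 735 on the first-run arrays, against 136 to 245 on the later arrays, with a median of 192. The groups were far apart, and the rise was 1.85 ± 0.17 (adjusted p = 4.20e-05). Among malectin-like receptor kinases 3 of 9 rose (33.3%, against 14.0% of all probe sets), led by AT1G51790 with 2.30 ± 0.17 (adjusted p = 1.67e-05). Without title 47 only 1 of these kinases rose. The subtilases SBT3.5 and SBT3.3, of which SBT3.3 is known to prime immunity, rose by 1.74 ± 0.30 (adjusted p = 0.00144) and 1.43 ± 0.24 (adjusted p = 0.00128). AT5G64120, the peroxidase PRX71, rose by 1.73 ± 0.36 (adjusted p = 0.00427), a call lost without title 48 (adjusted p = 0.0507).

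Genes of calcium and ubiquitin signalling that respond quickly to stress were also higher. Calmodulin-like proteins bind calcium. CML43 (AT5G44460), which is linked to resistance to bacteria, had signals of 76.3, 94.5 and 148 on the first-run arrays, against 12.5 to 30.4 on the later arrays, with a median of 25.6. It rose by 1.58 ± 0.17 (adjusted p = 0.000113) without overlap, and CML42, CML37 and CML38 rose by 1.24, 1.11 and 0.80. They were 4 of 8 tested members of the calmodulin list (50%, where 14.0% of all probe sets rose), in which none fell. PUB22, PUB23 and PUB24 are related U-box ubiquitin ligases that restrain immunity triggered by microbial patterns. PUB23 (AT2G35930) had signals of 146, 309 and 156 on the first-run arrays, against 17.4 to 29.6 on the later arrays, with a median of 20.3. Its rise was 2.49 ± 0.21 (adjusted p = 2.94e-05), PUB24 rose by 1.61 ± 0.17 (adjusted p = 8.78e-05), and PUB22 by 1.03 ± 0.26 (adjusted p = 0.013), a call lost without title 47 and also without title 48. For PUB23 the silwet difference was 2.26, close to that of the SA arrays.

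Of all lists the GDSL lipases had the most falls. They are secreted enzymes, many of which act on cutin and other surface lipids. Of 35 tested, 21 fell and 1 rose, with a median of -0.65 (silwet -0.21), where 15.4% of all probe sets fell. The number that fell was 15 to 22 when 1 SA array was left out. AT1G29660 had signals of 129, 38.8 and 66.6 on the first-run arrays, against 590.3 to 975 on the later arrays, with a median of 727. All 3 first-run signals were below 150 and all later ones above 500, a fall of 3.12 ± 0.25 (adjusted p = 2.51e-05). AT4G01130 differed by -2.52 ± 0.18 (adjusted p = 1.46e-05), AT5G45670 by -1.85 ± 0.20 (adjusted p = 8.84e-05) and AT1G75900 by -1.78 ± 0.21 (adjusted p = 0.000166). The one member that rose, AT5G03610, changed by 1.07. Treatment differences of first minus later were called below 0 for 6 members and above 0 for 0.

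Lipid transfer proteins, small secreted carriers of lipids, included 6 falls and 0 rises among 15 tested (median -0.55, silwet -0.33). Over all probe sets 15.4% fell. With silwet 4 of the 15 fell, and the treatment difference was called below 0 for 1. AT5G48490 had signals of 22, 30.6 and 63.2 on the first-run arrays, against 325 to 529 on the later arrays, with a median of 394.02. The first run was lower than every later array by at least a factor of 5, and the difference was -2.996 ± 0.17 (adjusted p = 5.28e-06). AT4G12490 and AT4G12500, close relatives whose transcripts one probe set may not tell apart, differed by -2.70 ± 0.34 (adjusted p = 0.000248) and -1.39 ± 0.30 (adjusted p = 0.00576). The call of AT4G12500 was lost with the 3' to 5' ratio as a covariate (adjusted p = 0.0727), with which 3 of the 15 fell, and without one replicate number (adjusted p = 0.0587). Both also had lower values in the first silwet run (-1.92 and -1.002).

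Pectate lyases and wall-loosening enzymes included more falls than rises. Of 15 pectate lyase-like genes, which cut unesterified pectin, 7 fell (46.7%, against 15.4% of all probe sets) and 0 rose. Their median was -0.52 (silwet -0.15), -0.92 without title 46 and -0.35 without title 47. AT1G67750 had signals of 31.9, 28.3 and 16.8 on the first-run arrays, against 49.6 to 306 on the later arrays, with a median of 236. Title 52 was far below the other later arrays but above the first run, and the difference was -2.35 ± 0.38 (adjusted p = 0.001). AT5G48900 and AT5G63180 differed by -1.95 ± 0.21 (adjusted p = 9.68e-05) and -1.60 ± 0.29 (adjusted p = 0.002). Expansins and xyloglucan enzymes, 22 tested, had 8 falls and 3 rises, a share of rises (13.6%) near the 14.0% of all probe sets. Without title 47 the counts were 4 and 2, and 5 fell with the 3' to 5' ratio as a covariate. The expansins EXPA8 and EXPB1 differed by -2.01 ± 0.37 (adjusted p = 0.00203) and -1.20 ± 0.31 (adjusted p = 0.0131), the second call being lost without title 47 or 48. XTH32 fell (-1.21) and XTH18 rose (1.29), both genes of enzymes that cut and rejoin xyloglucan. The size for XTH18 depended on the offset (2.60 with an offset of 1 and 0.54 with 64).

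Pectin methylesterases, which remove methyl groups from pectin, went the other way. All 3 tested rose and did so when any 1 SA array was left out: PME61 by 1.38 ± 0.20 (adjusted p = 0.000565), ATPMEPCRB by 1.28 ± 0.19 (adjusted p = 0.000602) and PMEPCRF by 1.19 ± 0.23 (adjusted p = 0.00322). PME61 had signals of 241, 99 and 149 on the first-run arrays, against 33.5 to 59.8 on the later arrays, with a median of 53.9. The first-run values did not overlap the later ones.

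Other gene families linked to growth held further falls. RALF-like peptides signal to receptor kinases at the cell wall, and 4 of 6 tested fell (median -0.81, silwet -0.38), where 15.4% of all probe sets fell. With silwet 2 of the 6 fell, and the treatment difference was called below 0 for 2. RALFL34 (AT5G67070), which is known from root development, had signals of 319.7, 208 and 193 on the first-run arrays, against 621 to 953 on the later arrays, with a median of 668. The difference was -1.58 ± 0.18 (adjusted p = 0.00012), that of RALFL24 was -1.42 ± 0.19 (adjusted p = 0.000315) and that of RALFL33 -0.96 ± 0.17 (adjusted p = 0.00156). Among 9 tubulins and tubulin-folding cofactors, 5 fell (55.6%, against 15.4% of all probe sets) and 1 rose. TUB5, TUB1 and TUB6, chains of beta-tubulin, fell (-1.29, -1.09 and -0.92), and TUA1, an alpha-tubulin known best from pollen, rose by 0.71, a call lost with the 3' to 5' ratio as a covariate (adjusted p = 0.0538). Without title 47 there were 3 falls.

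Serine carboxypeptidase-like proteins had 7 falls (35%, against 15.4% of all probe sets) and 1 rise among 20. Without title 47, 3 falls were left. SCPL34 had the lowest value (-1.32 ± 0.21, adjusted p = 0.000919). The GH9 endoglucanases, which act on cellulose, had 3 falls among 8 tested (37.5%, against 15.4% of all probe sets) and 1 without title 47. GH9C2 differed by -1.92 ± 0.46 (adjusted p = 0.00992), lost without title 47 or 48, and GH9B7 by -0.86 ± 0.17 (adjusted p = 0.00383). Trichome birefringence-like genes, which acetylate wall polymers, had 5 falls and 3 rises among 17 (29.4% and 17.6%, against 15.4% and 14.0% over all probe sets). Without title 47 their rises numbered 0 and their falls 3. TBL39 fell (-0.99) and TBL37 rose (1.07), though the rise of TBL37 was lost without title 47. In the tetraspanins, membrane organisers, TET3 and TET7 fell (-1.49 and -1.01) and TET8 rose by 1.15 ± 0.15 (adjusted p = 0.000277).

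**Figure D4:**
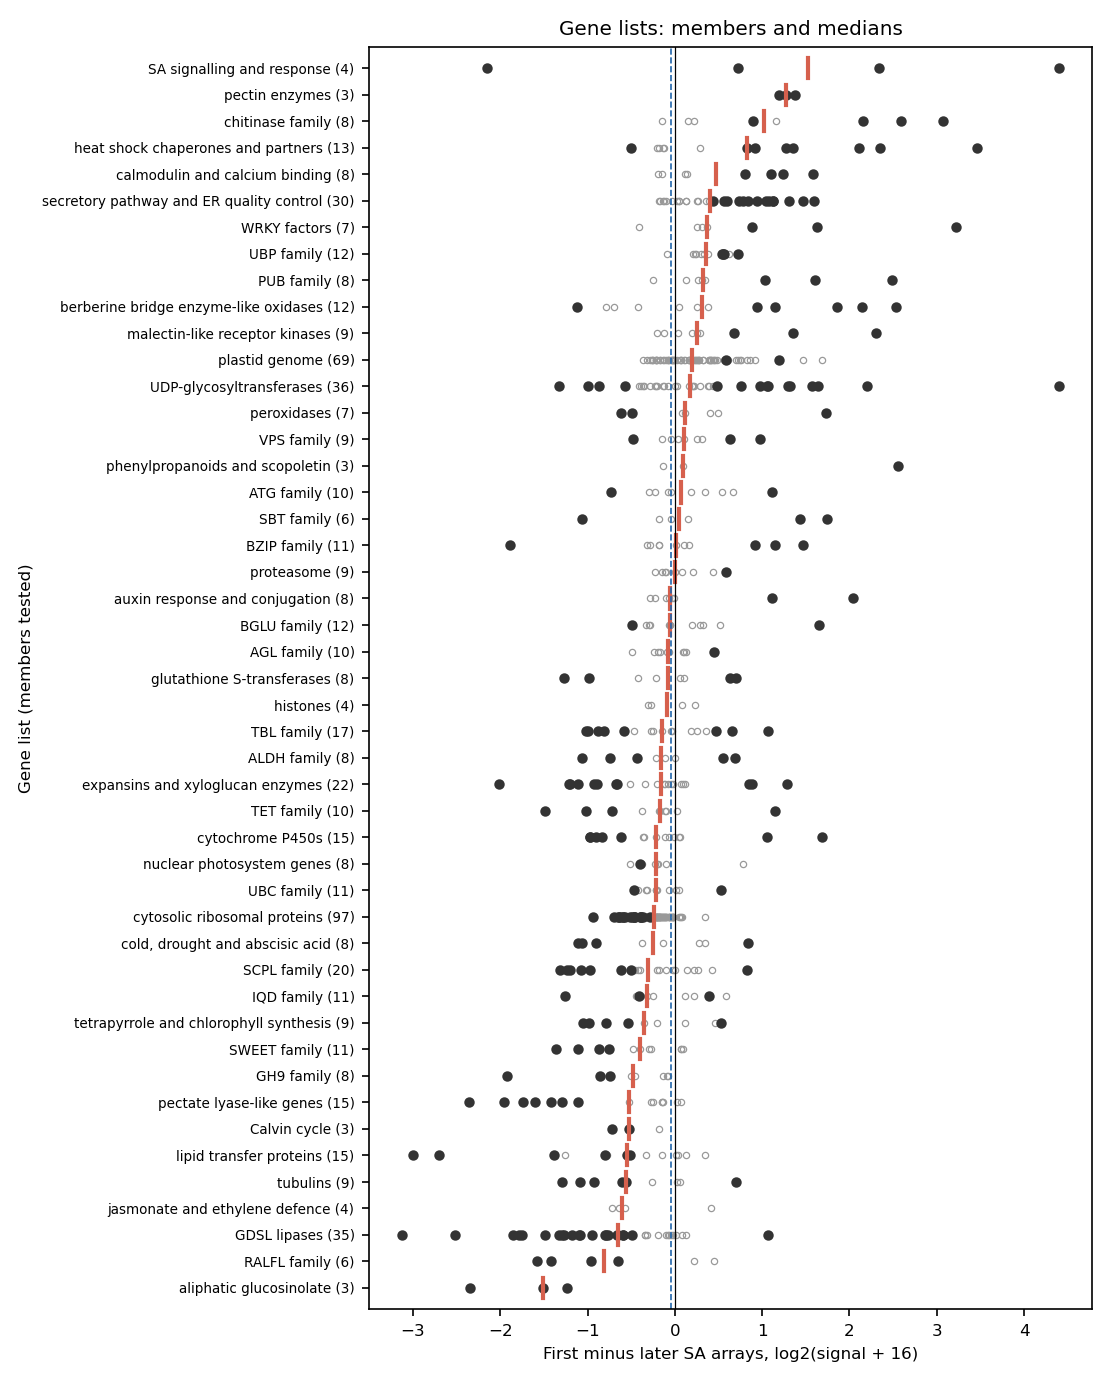
Differences of first minus later SA arrays for the tested members of 47 gene lists with at least 3 of them, one row per list with the number tested in brackets. Filled points passed at adjusted p under 0.05, open points did not, the short bar is the list's median and the dashed line the median of all probe sets (-0.04); the salicylic acid list has its median at the high end and the aliphatic glucosinolate list at the low end.

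Aliphatic glucosinolates are sulphur compounds made from methionine that deter herbivores. All 3 tested genes of their synthesis fell. AOP3 (AT4G03050), which forms hydroxyalkyl glucosinolates, had signals of 119, 68.8 and 199.7 on the first-run arrays, against 476 to 975 on the later arrays, with a median of 651. The ranges were apart and the difference was -2.35 ± 0.29 (adjusted p = 0.00023). AT2G31790, listed as UGT74C1, differed by -1.51 ± 0.26 (adjusted p = 0.00159) and BCAT4, the first enzyme of methionine chain elongation, by -1.24 ± 0.28 (adjusted p = 0.00696), a call lost without title 47 (adjusted p = 0.0709). In the silwet arrays the same 3 genes had differences of 0.12, 0.44 and 0.03, and the differences between treatments were called below 0 for all of them (-2.46, -1.96 and -1.27).

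Stress, sugar and senescence genes included some of the largest falls. OSM34 (AT4G11650), an osmotin-like protein, had signals of 13.7, 96.9 and 129 on the first-run arrays, against 339.7 to 847 on the later arrays, with a median of 588. Title 46 was the lowest, and all first-run signals lay below the later ones, a difference of -2.85 ± 0.24 (adjusted p = 3.14e-05). SAG29 (SWEET15) (AT5G13170), a sucrose transporter raised in senescence, had signals of 6.13, 13.8 and 14.5 on the first-run arrays, against 55.4 to 225 on the later arrays, with a median of 99.6. Its first-run signals were also under the offset, which limits the size of its fall (-2.15 ± 0.24, adjusted p = 0.000116), while the other 3 tested genes of the senescence list, WRKY53, WRKY6 and SAG101, rose. Both genes also fell in the first silwet run, OSM34 by 3.13 (adjusted p = 0.000785) and SAG29 by 2.44 (adjusted p = 0.0089). Their treatment differences of 0.28 and 0.29 did not pass.

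Genes with a SWEET symbol, transporters of sugars, had 4 falls (36.4%, against 15.4% of all probe sets) and 0 rises among 11 tested. Their median was -0.40. SWEET17, a fructose transporter of the vacuole, differed by -1.36 ± 0.19 (adjusted p = 0.00043) and SWEET2 by -1.11 ± 0.18 (adjusted p = 0.000958). Cold and dehydration genes had 3 falls and 1 rise among 8 (37.5% and 12.5%, against 15.4% and 14.0% over all probe sets), and 2 to 4 fell when 1 SA array was left out. COR15B, a protectant of chloroplast membranes in the cold, had signals of 1176, 619 and 685 on the first-run arrays, against 1379.9 to 1958 on the later arrays, with a median of 1719.6. It differed by -1.07 ± 0.15 (adjusted p = 0.000521) with no overlap. COR47 differed by -1.11 ± 0.20 (adjusted p = 0.00171) and COR15A by -0.90 ± 0.25 (adjusted p = 0.0187), the last call being lost without title 47 or 48 and with the covariate.

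Some genes of chlorophyll synthesis and carbon fixation fell. Of 9 tested genes of tetrapyrrole and chlorophyll synthesis, 4 fell, 1 rose and 4 did not pass (median -0.35). The falls were 44.4%, against 15.4% of all probe sets. CHLM (AT4G25080), the magnesium protoporphyrin methyltransferase, had signals of 541, 496 and 426 on the first-run arrays, against 668 to 1347 on the later arrays, with a median of 1069.8. It differed by -1.06 ± 0.17 (adjusted p = 0.00117). CHLI2, a subunit of magnesium chelatase, differed by -0.98 ± 0.18 (adjusted p = 0.002) and PORB, which reduces protochlorophyllide in light, by -0.79 ± 0.15 (adjusted p = 0.00266). The Calvin cycle gene PRK, phosphoribulokinase, differed by -0.72 ± 0.12 (adjusted p = 0.00128), and 2 of 3 tested genes of that cycle fell. The other that fell, SBPASE (-0.53), lost its call without title 47 (adjusted p = 0.131) and with the covariate (adjusted p = 0.0767).

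Nuclear genes of the photosystems changed less: 1 of 8, PSAN of photosystem I (-0.40), fell and the median was -0.22 (silwet -0.26). Without title 47 none fell, and the largest count with 1 array left out was 4. Their mean log2 level ran from 10.58 to 10.72 in the first run and 10.53 to 11.14 on the later arrays, so the ranges overlapped. Of 69 genes of the plastid genome 2, rpoC2 and psaB, rose and 0 fell (median 0.20, silwet -0.12). The share of rises was 2.9%, against 14.0% of all probe sets. Both calls were lost with the 3' to 5' ratio as a covariate (adjusted p = 0.418 and 0.336). The rises numbered 0 to 10 and the median ran from 0.10 to 0.29 when 1 SA array was left out, with the most rises without title 50. Each call was lost under 4 of the 9 ways of leaving out 1 array, those without title 46 or 47 among them. Larger values that did not pass were those of psaA (1.69) and psbA (1.47). Transcripts of the plastid carry little poly(A), so their signals depend on how the label was primed.

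Cytosolic ribosomal proteins shifted slightly and together. Of 97 tested, 92 had values below 0, 18 fell and 0 rose, with a median of -0.24. That share of falls lies near the 15.4% of all probe sets, and the 4265 probe sets with the highest levels had a median of -0.14. It also depended on the processing: 3 fell without title 48 and 2 with the 3' to 5' ratio as a covariate. The lowest was AT4G13170, with -0.93 ± 0.19 (adjusted p = 0.00441).

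Other groups had few calls or calls in both directions. In the proteasome list 1 of 9 rose, none without title 47, and 0 fell. Of 4 histone genes none passed, the differences being -0.31 to 0.23. Beta-glucosidases had 1 rise, that of BGLU31 (1.65 ± 0.19, adjusted p = 0.000127), and 1 fall among 12. The size for BGLU31 was 2.83 with an offset of 1 and 0.79 with 64. Autophagy genes had 1 rise, ATG8B (1.12), and 1 fall, ATG8F (-0.73), among 10, each lost without 1 first-run array. Cytochrome P450s had 2 rises and 5 falls among 15 (33.3% fell, against 15.4% over all probe sets), with CYP71B23 the highest (1.69 ± 0.21, adjusted p = 0.000203) and CYP71B34 the lowest (-0.97 ± 0.17, adjusted p = 0.0019). Of 8 glutathione S-transferases, detoxifying enzymes, 2 rose, 2 fell and 4 did not pass. GSTU18 and GSTU20 fell (-1.27 and -0.99), while GSTU27 and GSTU22 rose by 0.69 and 0.63, both rises being lost without title 47 or 48.

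Jasmonate and ethylene act partly against salicylic acid. None of the 4 tested markers of their defence branch passed. JMT, which methylates jasmonate, had a difference of 0.41 ± 0.23 (adjusted p = 0.205) and THI2.1, a thionin, -0.58 ± 0.40 (adjusted p = 0.309). The defensins PDF1.2 and PDF1.2b had -0.64 and -0.72. The list's median of -0.61 (silwet -1.09) gives no steady direction: it was 0.06 without title 47 and -0.90 without title 50, and the medians were -0.10 against the second run and -1.10 against the third.

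Since no tissue is named, marker lists for roots, seeds and flowers were checked. The only marker tested was EXPA18, an expansin of root hairs, with signals of 9.51, 12.6 and 4.6 on the first-run arrays, against 5.55 to 16.1 on the later arrays, with a median of 10.6. These lay near the floor in both groups, with a difference of -0.12 ± 0.16 (adjusted p = 0.605). The photosystem genes above, markers of green tissue, had a mean log2 level of at least 10.53 on every SA array.

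The same split of the silwet arrays gave a smaller set of calls, 5.22% of the probe sets tested (553 rises and 338 falls). Of the 550 that rose with silwet and were tested in SA, 85.8% also rose with SA, and they made up 19.7% of the SA rises. The corresponding shares for falls were 75.4% and 9.72%. These treatments share no arrays, and across the probe sets the differences of SA and silwet had a correlation of 0.674, given as a description. Probe sets that rose with SA had a median silwet difference of 0.322 and those that fell -0.217. The test of the treatment difference itself called 721 probe sets above 0 and 708 below 0 (8.38%). Without the replicate block these counts were 438 and 411, and the silwet calls numbered 448 in place of 891.

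Among the leading genes the share found with silwet varied. They were chosen for large SA differences, which also enlarges their treatment differences. AT5G51440, AT2G43620 and AT2G20720 differed about as much with silwet (3.50, 2.82 and 2.75) and OSM34 slightly more (-3.13). UGT76B1 had 1.85 with silwet and a treatment difference of 2.56 (adjusted p = 0.0254), WRKY53 1.33 and 1.89 (adjusted p = 0.001), and GRX480 0.73 and 1.61 (adjusted p = 0.00132). IAGLU, F6'H1 and AT5G62360 had silwet differences of 0.12, 0.36 and 0.11, none of which passed, beside treatment differences of 1.92, 2.20 and -2.40 that did.

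**Figure D5:**
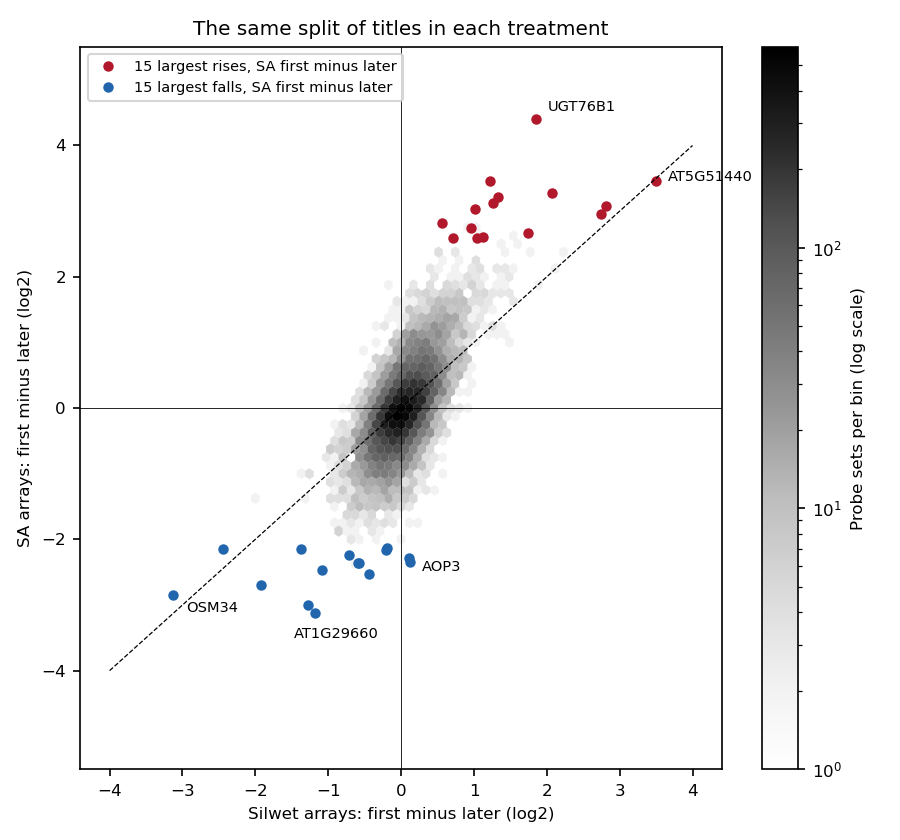
First minus later difference with SA (vertical axis) against the same split with silwet (horizontal axis), both in log2, with all probe sets tested as grey bins and the 30 largest named changes as points. On the dashed line both are equal: AT5G51440 lies on it, and UGT76B1 lies above it.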

How the data were processed

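The deposited table holds 1 intensity (MAS5 signal) per probe set and array, which the submitters' processing notes say the authors made with MAS5, giving no version. Array precision is limited by the number of arrays. Levels were log2(signal + 16), and the 64 control probe sets and those in the lowest 25% by mean level were left out. Differences were fitted with limma 3.58.1 in R 4.3.3 (lmFit, eBayes with trend, replicate number as block), with Benjamini-Hochberg adjustment over all 17059 probe sets, and figures drawn in Python 3.11.15. The code was tested on simulated data. Silwet arrays were fitted alike and entered no SA fit except the treatment difference.

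Of 22810 probe sets, 13513 had 1 gene in the platform annotation (13436 matched to a locus), 503 had several and 8730 none; the last 2 kinds were tested but not named. Named genes were the 15 largest called changes each way and up to 4 per gene list, by size. For the 15 each way, the first-run array also had to lie on the same side of both later arrays within each replicate number. Members of lists given by locus, and their families, came from general knowledge. Members and lists were chosen with earlier results of these data known.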

Additional observations from a re-analysis of the deposited data

Results flagged for a closer look

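In 3 measures 1 of the 6 later SA arrays lay apart from the other 5 by Dixon's criterion. Chance alone meets it in about 1 in 20 groups. It was applied to the 30 named genes with the largest changes and to array measures. With so many groups a few flags are expected from chance alone, so these 3 do not mark an array as unusual. AT4G01130 had a log2 level of 8.33 on title 53, with 7.85 as the next value. AT1G67750 had 6.04 on title 52, with 7.78 as the next. The log2 3' to 5' ratio of GAPDH was 0.871 on title 53, with 0.339 as the next.

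First minus later differed between SA and silwet arrays for 21 of the 30 named genes with the largest changes, by limma's test of the difference itself. Over all probe sets 8.38% were called. The 30 were chosen for large SA differences, which are part of this value, and that choice raises both the count and the sizes. The difference was above 0 for UGT76B1 (2.56), AT4G22530 (2.23), WRKY53 (1.89), AT2G39210 (1.86), AT1G08050 (2.02), AT4G01870 (2.26), AT5G51830 (1.79), AT1G49000 (1.47), AT1G02360 (1.88) and AT3G09010 (1.55). It was below 0 for AT1G29660 (-1.94), AT5G48490 (-1.73), AT4G01130 (-2.08), AT1G12845 (-1.38), AT3G21670 (-1.77), AT1G67750 (-1.78), AOP3 (-2.46), AT5G62360 (-2.40), DRT100 (-1.52), AT1G60590 (-1.95) and AT3G20820 (-1.93). All values are SA minus silwet on the log2 scale, and adjusted p-values ran from 1.89e-05 to 0.0366.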

How the results depend on the processing

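With all 9 SA arrays 5019 probe sets were called between the first run and the later arrays. That count was 8092 with array weights, 214 against a 2-fold limit, 2713 when the same sign was asked against each later run, 3332 with the 3' to 5' ratio as a covariate and 0 by the exact Wilcoxon test. It ran from 2065 to 5660 without one replicate number and from 2660 (without title 47) to 6117 without one array. Titles 47 and 48 were the SA arrays whose loss moved it by over 1.5 times (2660 and 2733). Against the second run the count of 3729 became 123 with the 2-fold limit, 1191 to 4306 without one number and 1827 to 5165 without one array (lowest without title 48, 47 or 50). Against the third, 4033 became 7137 with array weights, 130 with the 2-fold limit, 1129 to 4612 without one number and 1927 to 4702 without one array (lowest without title 48, 53 or 47). The silwet count of 891 became 448 with no filter, 1338 with array weights, 23 with the limit, 198 to 798 without one number and 244 to 1648 without one array (below 891 by over 1.5 times without title 37, 38, 39, 42 or 45, and above it without title 44). The treatment difference, 1429 calls, gave 3292 with array weights, 4 with the limit, 98 to 1614 without one number and 569 to 2073 without one array (569 without title 47, 838 without title 48 and 680 without title 38). The fits that leave out arrays use fewer samples; the cause of the other changes was not tested.

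Same-numbered SA arrays of different runs had correlations of their deviations from the run means of -0.1544 to 0.3449, so the number was not shown to pair them. Without the replicate block the count was 4844 between first and later SA arrays, 448 for silwet and 849 for the treatment difference. Of 165 called named genes, 114 kept the call with any 1 SA array left out, and 100 kept it under every alternative other than the rank test and the 2-fold limit. None of the named genes changed sign while called. Without some replicate number 65 lost it, and with the covariate 33. Medians of 10 of 51 lists changed sign when 1 SA array was left out, that of the jasmonate and ethylene list being 0.06 without title 47, and other settings changed the sign of 2, proteasome and BZIP.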

Other observations

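Smaller families gave further changes between the first SA run and the later arrays. ALDH3F1, an aldehyde dehydrogenase, had signals of 265, 94.1 and 142 on the first-run arrays, against 304 to 385.6 on the later arrays, with a median of 334.5. It fell without overlap (-1.06 ± 0.19, adjusted p = 0.00202), and ALDH11A3, which makes NADPH from glyceraldehyde phosphate in the cytosol, fell too (-0.74 ± 0.15, adjusted p = 0.00329). The treatment difference passed for ALDH3F1 (-1.04, adjusted p = 0.01) and not for ALDH11A3 (-0.26). Of 8 ALDH genes tested, 3 fell and 2 rose, with no rise left without title 47. Among IQD proteins, which bind calmodulin, iqd21 fell (-1.26 ± 0.20, adjusted p = 0.000939), with a silwet difference of 0.02. The subtilase SBT1.3 fell (-1.07 ± 0.19, adjusted p = 0.00187) while SBT3.3 and SBT3.5 rose.

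VPS60.1, part of the machinery that sorts membrane proteins into multivesicular bodies, had signals of 120.1, 154 and 138 on the first-run arrays, against 51.8 to 74.2 on the later arrays, with a median of 62.3. It rose by 0.97 ± 0.15 (adjusted p = 0.000878) without overlap. The cytosolic Hsp70 gene AT3G09440, bright on all arrays, had signals of 2133, 2870.4 and 2810.4 on the first-run arrays, against 769 to 1503 on the later arrays, with a median of 947. It rose by 1.36 ± 0.18 (adjusted p = 0.000329), with a silwet difference of 0.65. Among genes of ubiquitin-specific proteases 4 of 12 rose (33.3%, against 14.0% of all probe sets). None rose without title 47, and none with the 3' to 5' ratio as a covariate. AT2G46140, the late embryogenesis protein LEA27, rose by 0.83 ± 0.16 (adjusted p = 0.00239) in a list whose COR genes fell.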
